A study of Mus musculus with 23 samples.

Results

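The TRAV7 family holds the alpha-chain V segments of the mouse T cell receptor (TCR) whose first number is 7. Its members here were all alpha-chain (TRA) entries with such a V name, joint names included: 23 of 143 TRAV names and 6308 of 29047 TRA clonotypes, in a table of 64436 TRA and beta-chain clonotypes. A clonotype here means a V name joined to a J name with 1 CDR3 protein sequence, and a library is one sequenced sample. TCR transcripts were read from total RNA of a syngeneic mouse melanoma model built on the Nras Q61R line NIL, which had been exposed to ultraviolet light to raise its mutation load. The groups received trametinib with BGB-283 (combination), trametinib alone, BGB-283 alone or no drug (control), each at times labelled D11 and D4, with 3 libraries a group and 2 in control D11. Trametinib inhibits the kinase MEK and BGB-283 inhibits RAF kinases, and the study concerns acquired resistance to MEK inhibition and T cell immunity. The starting point of the day count is not labelled, nor is the animal behind each library, so p-values reflect only how these libraries spread, which may be technical. The table holds TCR chains alone, so the labelled tissue could not be checked against its own markers.

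The family was chosen with earlier results of the same counts in view: TRAV7N-4 had passed a test of usage for BGB-283 against control, and TRAV7 was known to be much used. Levels of use, and all calls of a drug group against control, are therefore a description. Tests are drawn from CDR3 length, TRAJ partners, sharing between libraries, D11 against D4 and combination against trametinib.

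A TCR alpha chain is made when a T cell joins one TRAV segment to one of many TRAJ segments, and the CDR3 is the loop across that junction, which contacts the presented peptide. The first residues of the CDR3 come from the V segment, its end comes from the J segment, and the residues between are trimmed or added at random. The mouse TRAV locus holds duplicated stretches, and D and N in a segment name mark the copies, so that TRAV7-2 and TRAV7D-2 are near-identical genes. TRAJ numbers count down along the locus, with high numbers nearest the V segments and low numbers farthest from them.

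The CDR3 sequences of 7 of the 10 TRAV7 clonotypes with the highest mean share of TRA counts are shown in order of that share, because the results on clone size and on recurrence between libraries turn on them.
TRAV7N-5 with TRAJ9: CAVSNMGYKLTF
TRAV7-5 with TRAJ34: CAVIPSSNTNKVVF
TRAV7D-2 with TRAJ34: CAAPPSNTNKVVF
TRAV7D-2 with TRAJ9: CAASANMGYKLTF
TRAV7D-2 with TRAJ11: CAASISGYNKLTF
TRAV7D-3 with TRAJ34: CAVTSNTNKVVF
TRAV7-1 with TRAJ23: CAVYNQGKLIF
The clonotype with the highest mean share of all joined TRAV7D-2 to TRAJ37, with a CDR3 of CAAS, then G, then TGNTGKLIF, and another of the 10 had R in place of G. The remaining one joined TRAV7D-2 to TRAJ5 with a CDR3 of 15 residues. TRAV7D-2 members start CAA and those of TRAV7N-5, TRAV7-5, TRAV7D-3 and TRAV7-1 start CAV. The TRAJ9 sequences both end in NMGYKLTF, and the TRAJ34 sequences all end in SNTNKVVF.

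TRAV7 held 27.6% ± 11.4 of TRA counts (SD, n = 23), with a range of 10.2% to 46.8%. It was the most used of the 21 TRAV families in 15 of 23 libraries, ahead of TRAV14 with a mean of 14.8% and TRAV6 with 11.9%. Of distinct TRA clonotypes it held 22.9% ± 3.73, so its share varied less when each clonotype was counted once. These are shares of RNA counts: fewer T cells with such a receptor and less receptor RNA per cell cannot be told apart.

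In combination libraries TRAV7 held 10.2%, 36.1% and 12.1% of TRA counts at D11 and 27.9%, 30.1% and 39.5% at D4. In trametinib libraries it held 28.2%, 25.1% and 28.2% at D11 and 14.8%, 37.3% and 42.7% at D4. In BGB-283 libraries it held 39.2%, 21.3% and 18.1% at D11 and 36.1%, 10.6% and 45.1% at D4. Control libraries had 21.9% and 14.4% at D11 and 31.1%, 46.8% and 17.9% at D4. All 4 treatments overlapped, and within each treatment the libraries of D11 and D4 overlapped too. The means over both days were 26.0% ± 12.3 in combination, 29.4% ± 9.72 in trametinib, 28.4% ± 13.6 in BGB-283 (SD, n = 6 each) and 26.4% ± 13.0 in control (SD, n = 5). The mean number of TRAV7 clonotypes was 587 in combination, 306 in trametinib, 225 in BGB-283 and 115 in control. As a share of all distinct TRA clonotypes this was 20.9%, 22.8% and 23.9% in combination, trametinib and BGB-283 in that order, and 24.1% in control, so the order of the numbers was not that of the shares.

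**Figure D1:**
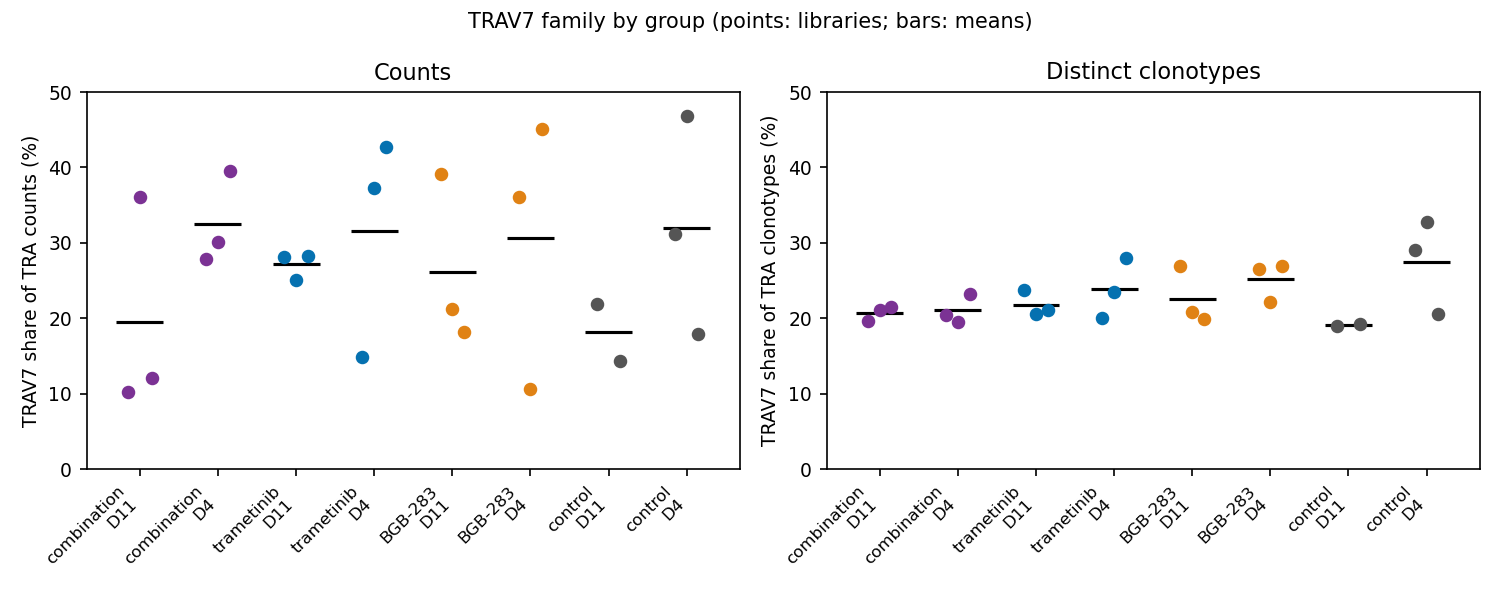
Share of TRA counts (left, percent) and of distinct TRA clonotypes (right, percent) held by TRAV7 in each of the 8 groups, with a point per library and a bar at the group mean. By counts libraries of one group spread widely, from 10.6% to 45.1% in BGB-283 D4; by clonotypes every library lies between 18.98% and 32.8%.

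edgeR's quasi-likelihood test over the 21 families, with Benjamini-Hochberg adjustment, gave TRAV7 a log2 fold of -0.22 for combination against trametinib (SE 0.39, adjusted p = 0.857), where 0% of families were called. With TMM scaling this value turned to 0.30 (adjusted p = 0.727), while the median of all families moved by 0.48 on the log2 scale. For D11 against D4, averaged over treatments, the log2 fold was -0.50 (SE 0.29, adjusted p = 0.426), where 9.52% of families were called. Neither difference passed the threshold of 0.05.

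Of the 14 TRAV7 segments that the RefSeq mouse annotation lists (GRCm38.p6, used for names and order alone), 12 appeared under a name of their own. TRAV7-4 and TRAV7D-4 appeared only in joint names, which list copies that the upstream caller did not separate. The 11 joint names held 9.56% of TRAV7 counts but 38.5% of TRAV7 clonotypes. Among the 23 names, 10 were above 0 in all libraries and 6 in fewer than 4. TRAV7D-2 was the main member, with 1839 clonotypes and 49.7% of TRAV7 counts.

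TRAV7D-2 held 13.6% ± 9.54 of TRA counts (SD, n = 23). Its lowest, median and highest values were 4.33%, 11.6% and 22.0% in combination, 6.99%, 10.1% and 29.6% in trametinib and 1.83%, 16.4% and 38.3% with BGB-283 alone, against 6.37%, 8.96% and 19.9% in control. BGB-283 libraries thus spanned the lowest and the highest value of all, the highest in D4 replicate 3. There 1 clonotype, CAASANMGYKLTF with TRAJ9, made up 13.6% of TRA counts, and 141 TRAV7D-2 clonotypes were listed.

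TRAV7D-3 averaged 3.46% ± 3.17 (SD, n = 23). It lay between 1.08% and 11.4% in combination, 1.42% and 7.95% in trametinib, 0.703% and 4.01% in BGB-283, and 0.904% and 6.04% in control. In its highest library, combination D11 replicate 2, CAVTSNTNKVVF accounted for 84.8% of its counts. TRAV7-5 averaged 2.46% ± 2.86, between 0.179% and 2.48% in combination, 0.345% and 11.1% in trametinib, 0.574% and 4.03% in BGB-283, and 0.0629% and 7.83% in control. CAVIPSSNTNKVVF made up 81.1% of it in its highest library, trametinib D4 replicate 2.

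TRAV7-4V7D-4, a joint name, averaged 1.97% ± 1.81, with ranges of 0.711% to 3.64% in combination, 0.841% to 6.56% in trametinib, 0.252% to 6.30% in BGB-283 and 0.332% to 3.26% in control. TRAV7N-5 averaged 1.54% ± 2.43, with ranges of 0.235% to 1.41%, 0.158% to 4.01% and 0.260% to 2.42% in combination, trametinib and BGB-283 in that order, and of 0.0693% to 11.2% in control. Its peak, in control D4 replicate 2, was to 75.8% the clonotype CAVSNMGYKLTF. For these names too, then, 1 clonotype carried most of the highest library.

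TRAV7N-6 averaged 1.11% ± 1.95 (SD, n = 23). It held 0.179% to 8.68% of TRA counts in combination, 0.248% to 3.65% in trametinib and 0.0301% to 0.171% with BGB-283 alone, against 0.149% to 2.56% in control. All BGB-283 libraries lay below all combination and all trametinib libraries, and overlapped only the lowest control library. The gap to combination was thin, 0.171% against 0.179%, and the BGB-283 values came from 1 to 16 clonotypes a library. How many other TRAV names separate in this way was not counted, so nothing is read from it. The edgeR log2 fold for combination against BGB-283 was 3.16 (SE 0.99, adjusted p = 0.149), which did not pass.

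**Figure D2:**
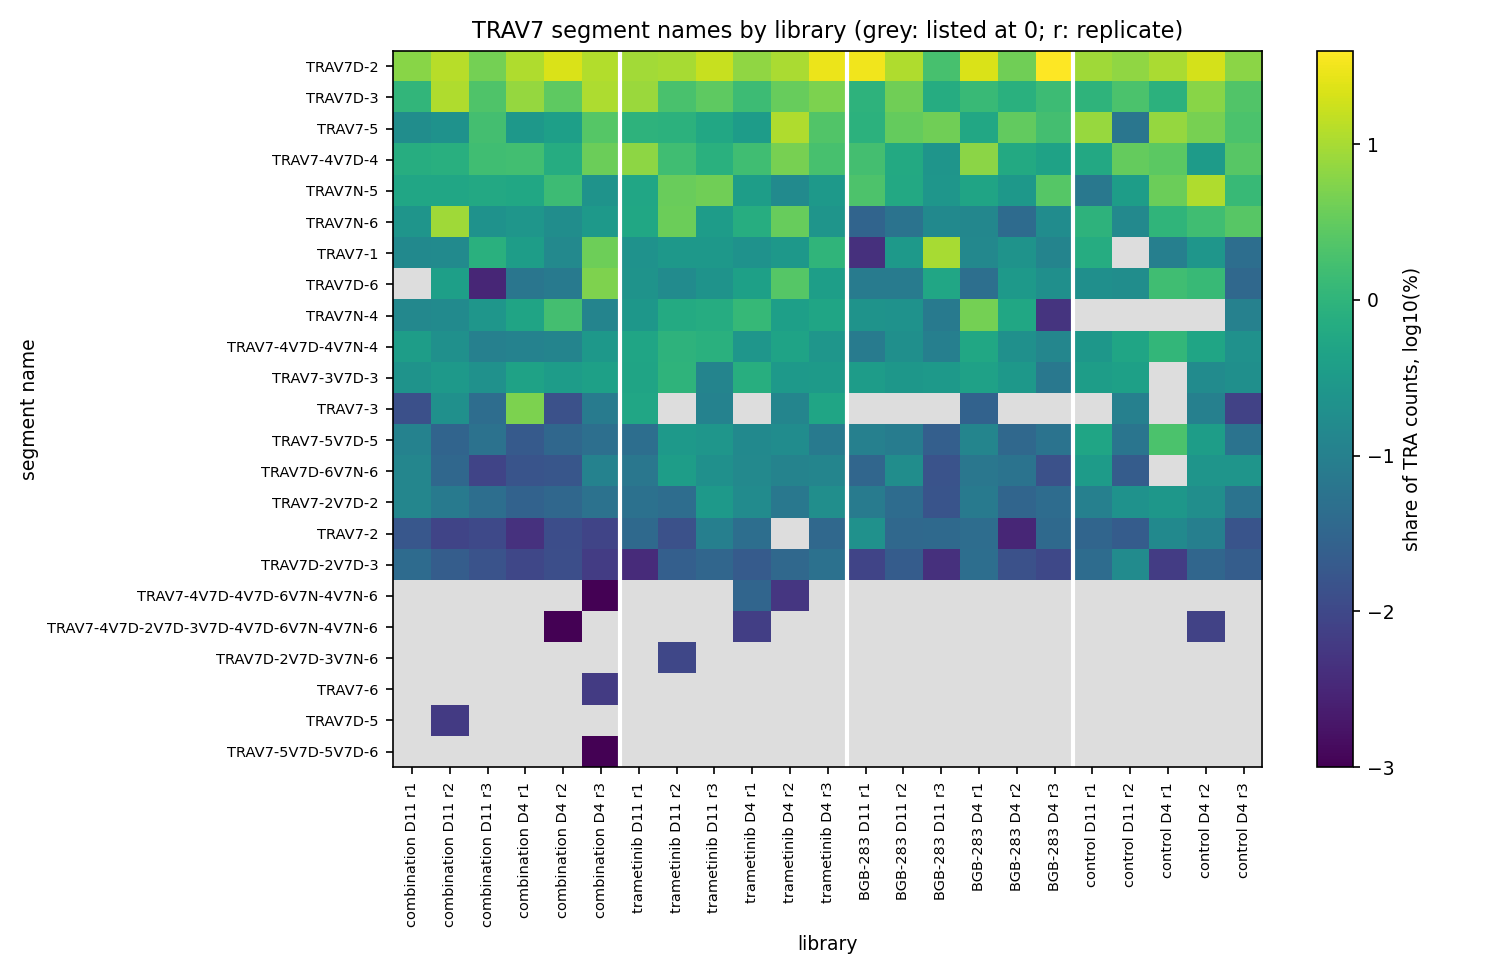
Share of TRA counts of each of the 23 TRAV7 names (rows, highest mean at the top) in each library (columns), as log10 of the percent, with grey for names listed at 0. TRAV7D-2 leads in all libraries but trametinib D4 replicate 2 and BGB-283 D11 replicate 3. TRAV7N-4 is grey in 4 of 5 control libraries and TRAV7-3 in 5 of 6 BGB-283 libraries. TRAV7-3 is also grey in trametinib D4 replicate 1, trametinib D11 replicate 2, control D4 replicate 1 and control D11 replicate 1.

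The usage of single names was tested with edgeR over 118 TRAV names, of which 18 were TRAV7. The 5 that a filter on low counts removed were names seen in 1 to 3 libraries. For combination against trametinib, 0 TRAV7 names were called at an adjusted p under 0.05, 0 had an unadjusted p under 0.05, and 0% of all names were called. At the unadjusted p, 5.08% of all names were found, and DESeq2 called 0 of 17 TRAV7 names and 4.55% of all names it could adjust. The median log2 fold of the TRAV7 names was -0.78, against -0.64 over all names. For D11 against D4, edgeR called 0 of 18 TRAV7 names and 0% of all names. Of the TRAV7 names 2 had an unadjusted p under 0.05, as did 10.2% of all names. DESeq2 called 1 of 17, TRAV7N-4, with 10.9% of all names called. The TRAV7 median was -0.10, against 0.20 over all names.

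The other contrasts set BGB-283 or control, on which TRAV7N-4 had been noticed, against another group, so nothing is read from their counts. D11 against D4 is averaged over all treatments and so takes in the BGB-283 and control libraries too. Nothing is read from its values for TRAV7N-4 either. For combination against BGB-283, edgeR called 0 of 18 TRAV7 names and 0.847% of all names, 3 TRAV7 names and 7.63% of all names had an unadjusted p under 0.05, and DESeq2 called 2 of 17 TRAV7 names and 2.73% of all names. For combination against control edgeR called 0 TRAV7 names and 0% of all names, 3 and 13.6% had an unadjusted p under 0.05, and DESeq2 called 2 and 11.8%. For trametinib against control the edgeR calls were 0 TRAV7 names and 0% of all names, with 1 and 12.7% at an unadjusted p under 0.05, and 1 and 10% by DESeq2. For BGB-283 against control they were 1 TRAV7 name, TRAV7N-4, and 1.69% of all names, with 4 and 14.4% at an unadjusted p under 0.05, and 3 and 12.7% by DESeq2. The TRAV7 medians in these contrasts were -0.01, -0.58, 0.11 and -0.995 on the log2 scale, against 0.16, 0.21, 0.59 and -0.05 over all names. The 3 drug-against-control contrasts share their 5 control libraries.

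TRAV7N-4 was rare and made of mostly different clones in each library. Combination libraries had 0.142%, 0.162% and 0.266% of TRA counts in it at D11 and 0.487%, 1.69% and 0.119% at D4. Trametinib libraries had 0.274%, 0.653% and 0.715% at D11 and 1.19%, 0.397% and 0.505% at D4. In BGB-283 it held 0.232%, 0.218% and 0.0796% at D11 and 4.30%, 0.552% and 0.00494% at D4. In control it was listed at 0 in both D11 libraries and in D4 replicates 1 and 2, and held 0.107% in D4 replicate 3. All 18 drug-treated libraries thus listed it and 1 of 5 control libraries did, but 2 BGB-283 libraries lay below that one. In the 4 control libraries at 0, a floor of 3 counts allows a share of 0.00218% to 0.00800%, which covers counting error only. Counts are not molecules. These libraries held an estimated 2013 to 7064 TRA molecules, and 1 molecule in any of them is a share above this floor. The zeros are therefore less tightly bounded than the floor in counts.

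Of its 121 clonotypes, 117 were listed in 1 library each, and the largest ones of the 19 libraries that listed it were 18 different clonotypes. The highest library, BGB-283 D4 replicate 1, owed 95.5% of its TRAV7N-4 counts to 1 clonotype with TRAJ28 and a CDR3 of 13 residues. In that library the same TRAJ28 and CDR3 also stood at 3.06% of TRA counts under the joint name TRAV7-4V7D-4, beside 4.11% under TRAV7N-4. Which of these names the transcripts belong to was not tested, so this peak is uncertain as a value of TRAV7N-4. The joint name TRAV7-4V7D-4V7N-4, which can hide TRAV7N-4 transcripts, was above 0 in every control library, at 0.211% to 1.11% of TRA counts from 4 to 16 clonotypes, against 0.0835% to 0.926% in treated libraries. Treated libraries held 528 to 4424 TRA clonotypes and control libraries 265 to 815; the part of this in the TRAV7N-4 values was not tested. For BGB-283 against control the edgeR adjusted p was 0.0307, and the fold is not given because it depends on what is assumed for libraries at 0. That call was lost without any 1 of BGB-283 D4 replicate 1, BGB-283 D4 replicate 2, BGB-283 D11 replicate 2, control D11 replicate 1 or control D11 replicate 2. It was also lost when each clonotype was counted once, with counts under 20 removed, when replicate number was fitted as a block, and when the 2 control libraries with the fewest TRA counts were left out together.

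The TRAV names outside the family whose shares were most like those of TRAV7N-4 over the 23 libraries were TRAV14-3 with a Spearman rho of 0.57, TRAV16 with 0.53 and TRAV4-3V4D-3 with 0.51. They were picked as the highest of 82 names compared, and Pearson's r was 0.73, 0.12 and 0.43 in the same order. The families closest to the summed TRAV7 share, of 18 compared, were TRAV2 with rho 0.24 and TRAV21 with rho 0.15. All these shares have the TRA total of the library in common.

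Large clones carried much of the family. The largest TRAV7 clonotype of a library averaged 22.99% ± 9.02 of its TRAV7 counts (SD, n = 23), from 11.4% in trametinib D4 replicate 1 to 52.8% in BGB-283 D11 replicate 3, where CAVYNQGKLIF with TRAV7-1 and TRAJ23 held 9.57% of TRA counts. Without the largest TRAV7 clonotype of each library the mean family share was 21.9% in combination, 25.0% in trametinib and 22.0% with BGB-283 alone, against 21.9% in control. At 1% or more of TRA counts in some library there were 93 TRAV7 clonotypes, 43 of them TRAV7D-2, which made up 31.7% of the 293 TRA clonotypes of that size.

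Such clones were found in every library. Counted once per library, combination had 30 over 6 libraries (2 to 9 in each), trametinib 31 over 6 (1 to 10), BGB-283 29 over 6 (1 to 8) and control 28 over 5 (2 to 10). In these counts and in the 93, a TRAJ and CDR3 listed under more than 1 TRAV7 name counts once under each name. This was so for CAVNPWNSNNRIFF in combination D4 replicate 1, at 6.68% under TRAV7D-3 and 4.98% under TRAV7-3. It was also so for the TRAJ28 sequence of BGB-283 D4 replicate 1, under TRAV7N-4 and TRAV7-4V7D-4. Of the 93, 48 were listed in 1 library and 9 reached 1% in more than 1. TRAJ37 was the partner of 15, TRAJ9 of 9, and TRAJ34 and TRAJ5 of 8 each.

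The largest shares of single clonotypes were seen in different treatments. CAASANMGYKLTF of TRAV7D-2 reached 13.6% in BGB-283 D4 replicate 3 and was listed in 3 libraries. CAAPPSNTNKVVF of TRAV7D-2 reached 13.6% in control D4 replicate 2, and stood at 2.89% and 1.31% in BGB-283 D11 replicates 2 and 1 and 0.712% in trametinib D4 replicate 2. The 15-residue TRAV7D-2 clonotype with TRAJ5 reached 13.4% in BGB-283 D11 replicate 1 and was listed nowhere else. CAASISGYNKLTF reached 12.1% in trametinib D4 replicate 3, its only library.

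TRAJ use set TRAV7 apart from the other TRA clonotypes of the same libraries. Each library gave 1 share per TRAJ among its distinct TRAV7 clonotypes and 1 among its other TRA clonotypes, and the differences were tested with a two-sided sign-flip permutation test over the 23 libraries, adjusted over 41 TRAJ by Benjamini-Hochberg. 15 of 41 TRAJ, 36.6%, differed at an adjusted p under 0.05, 3 higher and 12 lower in TRAV7, and the median difference was -0.20 percentage points. The partners used most by TRAV7 were TRAJ37, TRAJ9, TRAJ21, TRAJ22 and TRAJ23.

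TRAJ37 was the partner of 7.54% ± 3.53 of TRAV7 clonotypes, against 3.24% ± 0.842 of other TRA clonotypes (SD, n = 23 libraries), and was higher in 22 libraries (permutation test, adjusted p = 0.000102). TRAJ9 was used by 7.02% ± 3.90, against 3.29% ± 1.38, again higher in 22 libraries (permutation test, adjusted p = 0.000102). TRAJ34 was used by 4.66% ± 4.14, against 2.32% ± 0.933, and was higher in 17 (permutation test, adjusted p = 0.0141). These 3 were the only partners called higher, and the first 2 have the smallest p that the resamples can give. TRAJ21, at 6.11% ± 2.64 against 4.74% ± 1.45, did not pass (permutation test, adjusted p = 0.128), and neither did TRAJ23, at 5.83% ± 2.99 against 5.40% ± 1.84 (permutation test, adjusted p = 0.677).

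Of the 12 partners called lower, all but TRAJ7, TRAJ13 and TRAJ22 were numbered 42 or above, the side nearer the V segments. The largest difference was in TRAJ22, used by 5.89% ± 2.92 of TRAV7 clonotypes, against 8.71% ± 1.93 of the others (lower in 17 libraries, permutation test, adjusted p = 0.00783). TRAJ49 followed with 1.69% ± 0.881, against 3.55% ± 1.11, and TRAJ48 with 0.992% ± 0.755, against 2.36% ± 0.886, each lower in 20 libraries. TRAJ56 was used by 0.337% ± 0.488, against 1.36% ± 0.416, and TRAJ58 by 0.0626% ± 0.134, against 1.04% ± 0.608. Adjusted p-values of these 4 permutation tests ran from 0.000102 to 0.000154. Partners numbered 40 or above were used by 12.2% of all TRAV7 clonotypes, against 23.1% of the other TRA clonotypes.

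**Figure D3:**
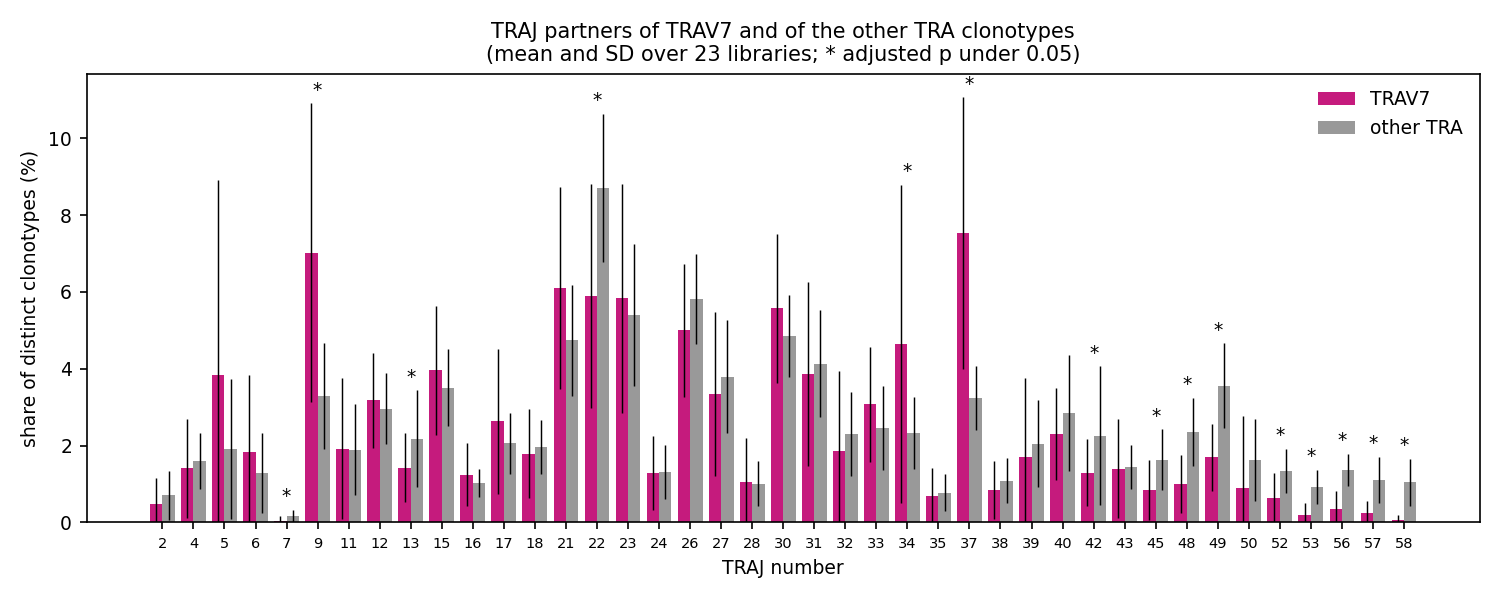
Mean share of distinct clonotypes (percent, bars, with SD over 23 libraries) that use each TRAJ, for TRAV7 and for the other TRA clonotypes; stars mark an adjusted p under 0.05. TRAJ9, TRAJ34 and TRAJ37 stand higher in TRAV7, and the means of TRAV7 are lower for every number from 42 upwards.

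The mean TRAJ number was 25.2 ± 1.56 in TRAV7 clonotypes, against 28.1 ± 1.39 in other TRA clonotypes, lower in 20 of 23 libraries (difference -2.995 ± 1.80, SD; permutation test, adjusted p = 3e-05). By treatment it was lower in 6 of 6 combination, 6 of 6 trametinib, 5 of 6 BGB-283 and 3 of 5 control libraries. Weighted by counts, the difference was -1.80 and did not pass (permutation test, adjusted p = 0.0559). Without TRAV7D-2 the unweighted difference was -1.93, and for TRAV7D-2 alone -5.31; this division was made after the data were seen, so its values here and further on are a description with no test.

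Within the family the names differed in the part of the TRAJ cluster they used. In libraries with at least 5 of its clonotypes, TRAV7D-6 had a mean TRAJ number of 39.2 ± 2.75, against 25.3 ± 1.26 for the rest of TRAV7, and was higher in 11 of 11 libraries. TRAV7D-6V7N-6 had 39.9 ± 4.57, against 24.9 ± 1.08, higher in 15 of 15. TRAV7-5 had 31.8 ± 4.05, against 24.7 ± 1.42, higher in 20 of 20. TRAV7N-6, by contrast, had 23.5 ± 3.13, against 25.4 ± 1.55, and was higher in 4 of 20. These names were singled out after their values were seen, so they get no test.

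The pooled clonotypes show the same. TRAJ numbers of 40 or above were used by 40.3% of the 119 TRAV7D-6 clonotypes and 46.9% of the 194 of TRAV7D-6V7N-6, against 7.94% for TRAV7D-2, 5.92% for TRAV7N-6 and 5.03% for TRAV7-1. Numbers below 20 were used by 1.68% of TRAV7D-6 and 42.1% of TRAV7N-4 clonotypes. Over the 10 single names with more than 1 clonotype, the order of the genes in RefSeq and the mean TRAJ number had a Spearman rho of -0.08, given as a description. Single names also had favoured partners: TRAJ37 made up 11.47% of TRAV7D-2 clonotypes, TRAJ9 17.8% of TRAV7N-5, TRAJ34 13.5% of TRAV7-5 and TRAJ21 10.7% of TRAV7D-3.

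**Figure D4:**
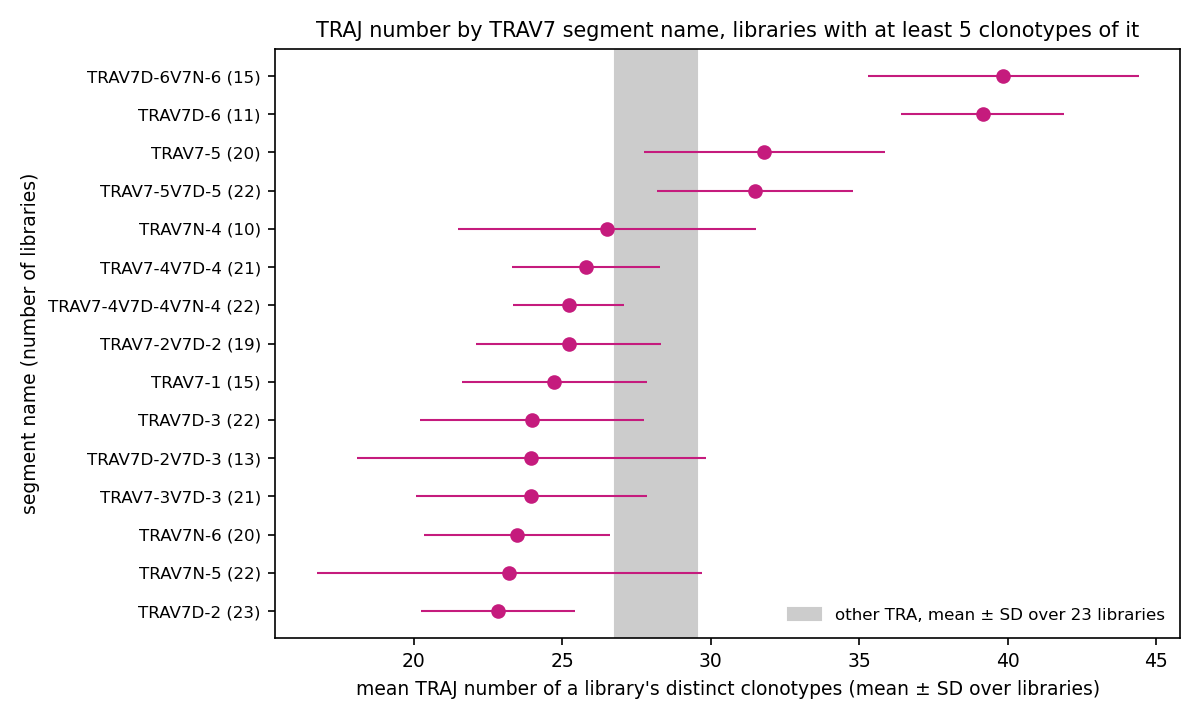
Mean TRAJ number of the distinct clonotypes of each TRAV7 name, for names with at least 100 clonotypes in all, as mean and SD over the libraries with at least 5 of them (their number in brackets); the grey band is the mean ± SD of the other TRA clonotypes over 23 libraries. TRAV7D-6V7N-6 and TRAV7D-6 lie at 39.9 and 39.2, and TRAV7D-2 lies lowest of those plotted at 22.8; TRAV7-2, with 58 clonotypes, is not plotted and had a mean of 19.3 over its pooled clonotypes.

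TRAV7 CDR3 loops were shorter. They averaged 13.4 ± 0.149 residues, against 13.6 ± 0.0606 in other TRA clonotypes (SD, n = 23), a difference of -0.245 ± 0.165 that was negative in 20 libraries (permutation test, adjusted p = 3e-05). Without TRAV7D-2 the difference was -0.284. Over pooled clonotypes the mean ran from 12.8 residues in TRAV7D-3 and 12.9 in TRAV7-1 to 14.4 in TRAV7N-4, so the family mean covers names both shorter and longer than the 13.6 of other TRA clonotypes.

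**Figure D5:**
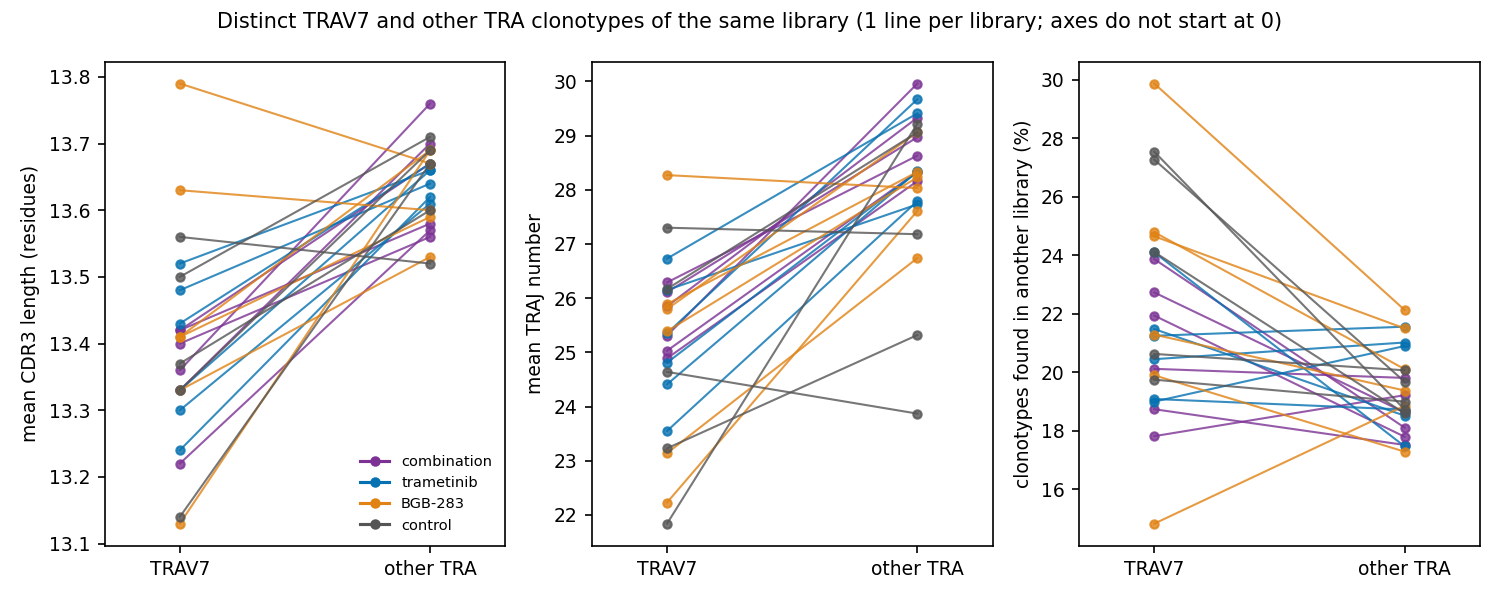
Mean CDR3 length (residues), mean TRAJ number and percent of clonotypes found in another library, for the distinct TRAV7 clonotypes (left of each panel) and other TRA clonotypes (right) of each of 23 libraries, with a line per library coloured by treatment. In 20 libraries the line runs upwards for length and for TRAJ number, and in 18 it runs downwards for sharing.

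The first residues of the CDR3 split the family in a pair of sets. Of TRAV7 clonotypes 51.4% began with CAA, against 32.2% of other TRA clonotypes, and 37.6% with CAV, against 10.2%. CAA opened 88.6% of TRAV7D-2, 93.1% of TRAV7-4V7D-4 and 96.6% of TRAV7-2 clonotypes. CAV opened 86.6% of TRAV7N-5, 80.9% of TRAV7N-6, 75.0% of TRAV7-5, 74.9% of TRAV7-1 and 71.1% of TRAV7D-3 clonotypes. TRAV7N-4 held both, with 43.8% CAA and 55.4% CAV.

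TRAV7 clonotypes recurred in other libraries more often than other TRA clonotypes. In a library, 22.0% ± 3.46 of TRAV7 clonotypes were also listed in at least 1 other library, against 19.3% ± 1.38 of other TRA clonotypes (difference 2.63 ± 3.39 percentage points, higher in 18 of 23, permutation test, adjusted p = 0.00126). A shared clonotype counts in every library that lists it, so the 23 differences are not independent. The permutation test does not allow for this. Every control library had the higher value in TRAV7, as did 5 of 6 combination, 3 of 6 trametinib and 5 of 6 BGB-283 libraries. Without TRAV7D-2, the name whose clonotypes recurred most, the difference turned to -2.54 points, and for TRAV7D-2 alone it was 14.8 points, both given as a description.

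Over all libraries, 591 of 6308 TRAV7 clonotypes, 9.37%, were in more than 1 library, against 8.29% of the others. The share was 14.7% for TRAV7D-2, 10.8% for TRAV7D-3, 10.1% for TRAV7N-5 and 9.58% for TRAV7N-6. All other TRAV7 names with at least 100 clonotypes lay below the 8.29% of other TRA clonotypes. They ran from 7.49% for TRAV7-4V7D-4 to 0.81% for TRAV7D-2V7D-3, with 4.02% for TRAV7-1 and 3.31% for TRAV7N-4. Recurrence also moved with clone size. Among entries of 3 to 20 counts, 24.5% of TRAV7D-2, 12.8% of other TRAV7 and 14.3% of other TRA entries were found in another library, and among entries over 200 counts 57.0%, 45.04% and 34.6% were. TRAV7D-2 thus stood highest at both sizes.

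The most widespread TRAV7 clonotype was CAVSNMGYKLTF of TRAV7N-5 with TRAJ9, in 14 libraries. It was listed in 4 combination, 3 trametinib, 4 BGB-283 and 3 control libraries, at 0.0110% to 8.49% of TRA counts where present. Its high values were 8.49% and 1.65% in control D4 replicates 2 and 1, 3.14% and 2.70% in trametinib D11 replicates 3 and 2, 2.20% in BGB-283 D4 replicate 3 and 1.12% in combination D4 replicate 2. The TRAV7D-2 and TRAJ37 clonotype with G after CAAS was listed in 9 libraries, and its high values were in combination D4 replicate 2 (6.21%), trametinib D11 replicate 3 (6.24%) and BGB-283 D4 replicate 3 (6.53%), against 0.227% in its only control library; combination D11 replicate 2 with 0.226% and combination D4 replicate 3 with 0.0221% lay below that. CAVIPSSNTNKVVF of TRAV7-5 was listed in 8 libraries, at 8.97% in trametinib D4 replicate 2 and at 2.91% in both BGB-283 D4 replicate 2 and control D4 replicate 2. Large shares of these receptors thus came up in libraries of different treatments.

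TRAV7D-3 with TRAJ21, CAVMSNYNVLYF, was in 11 libraries, at most 1.95%: 4 combination, 4 trametinib and 3 BGB-283 libraries and no control library. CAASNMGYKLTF of TRAV7D-2 with TRAJ9 had the same spread over treatments. Treated libraries held more clonotypes, as given above, and the part of this in these counts was not tested.

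Some TRAV7D-2 clonotypes with TRAJ37 shared one frame. Of the 211, 72 (34.1%) ended in TGNTGKLIF, against 56.0% of other TRA clonotypes with TRAJ37. The form CAAS, 1 residue, TGNTGKLIF was found in 13, which by the definition of a clonotype differ in that residue alone. Of these 13, 11 were in more than 1 library, against 35 (17.7%) of the remaining ones. At least 1 of the 13 was listed in 21 of 23 libraries, and together they averaged 2.55% of TRA counts, with a highest value of 11.1% in combination D4 replicate 2. The forms with G and R were in 9 libraries each, and those with M, I and E in 6 each. With TRAJ9, 13 forms of CAAS, 1 residue, NMGYKLTF were seen in 18 libraries, averaging 0.983%, with a median of 0.1001% and a highest value of 14.8% in BGB-283 D4 replicate 3, without which the mean was 0.354%. With TRAJ5, 10 forms of the same kind averaged 1.56%, with a median of 0.114%. With TRAJ34 there were 6 such forms in 4 libraries, 0 of them in more than 1, against 18.9% of the other TRAV7D-2 clonotypes with TRAJ34. With TRAJ21 there were 7 in 9 libraries, averaging 0.0284%. Of these, 4 were in more than 1 library, 57.1% against 19.3% of the other TRAV7D-2 clonotypes with TRAJ21. These forms were picked after their values were seen and were not tested.

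Values of single copies are uncertain where the genes are near-identical. In combination D4 replicate 1, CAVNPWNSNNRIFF with TRAJ31 stood at 6.68% of TRA counts under TRAV7D-3 and at 4.98% under TRAV7-3, where it was 99.8% of that name. Of 2629 entries under joint names, 253 (9.62%) had the same TRAJ and CDR3 as an entry under another TRAV7 name in the same library, which was the larger one in 74.3% of cases. Of 4653 entries under single names, 454 (9.76%) did, and the entry under the other name was the larger one in 42.7% of these. By counts the overlap was larger, with 57.4% of counts under single names and 39.4% of those under joint names in such entries. It took in 68.9% of TRAV7D-2, 69.8% of TRAV7N-4, 75.1% of TRAV7D-6 and 63.4% of TRAV7-5 counts, and 69 of 70 TRAV7-2 entries. The entry under the other name was larger for 23 of the 149 such entries of TRAV7D-2 and 2 of the 16 of TRAV7N-4. For TRAV7D-6 it was larger in 2 of 14 and for TRAV7-5 in 10 of 36, but for TRAV7-2 in all 69. With clonotypes defined by TRAJ and CDR3 alone, the differences in length, TRAJ number and sharing were -0.241 residues, -2.81 and 1.87 points (permutation tests, adjusted p = 6e-05, 6e-05 and 0.0449). The test of sharing has the limit given for it above.

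Depth differed between libraries. TRA counts ran from 64064 to 524431 in treated and from 37504 to 227206 in control libraries, and TRAV7 clonotypes from 142 to 863 and from 63 to 157. Counts are not molecules: values above 0 began at 3, and the value 20 occurred 385 times among TRAV7 entries, against 79 times for 19 and 35 times for 21. With each count divided by 20 and rounded up to estimate molecules, the mean TRAV7 share was 25.6% in combination, 29.0% in trametinib and 28.2% with BGB-283 alone, against 26.4% in control.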

How the data were processed

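Per the labels, libraries were made from total RNA using QIAGEN's QIAseq kit for immune repertoires. The deposited values are whole-number counts, unscaled, for each chain, V name, J name and CDR3. Caller and filters: not given in the sources used here. GRCh38, which is human, is the build in the submitters' processing notes although the samples are mouse. No coordinates were used. The 92 TRA entries with an unresolved CDR3 residue were left out (274 over both chains).

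The members and lists were chosen with earlier results of these data known. Usage was tested with edgeR 4.0.16 (quasi-likelihood, 8 group means, TRA total as library size, TMM off, filterByExpr; R 4.3.3), with DESeq2 1.42.0 as an alternative. Adjustment was by Benjamini-Hochberg over all TRAV names or families of a contrast, at 0.05. The biological coefficient of variation was 1.32 for names. TRAV7 was compared with other TRA clonotypes of the same library by two-sided sign-flip permutation tests with 100000 resamples (numpy 2.4.6), adjusted over 3 measures. Spearman and Pearson correlations of shares were computed with scipy 1.17.1. A planned additional measure, the share of the largest clonotype against families with as many clonotypes, could be computed in 1 library and was dropped, a departure from the plan. Named members were the 6 TRAV7 names with the highest mean share and any past the edgeR test, the 10 clonotypes with the highest mean share and those at 1% or more, the 5 TRAJ used most and up to 5 past the threshold in each direction, by size of difference. The code was tested on simulated data. Alternatives covered scaling, filters, weights, clonotype definitions, a replicate block and left-out libraries. Read depth bounds a share of 0 at 3 counts per library. This covers counting error only and is a bound in counts, not in molecules.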

Additional observations from a re-analysis of the deposited data

Results flagged for a closer look

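TRAV7N-5 moved in opposite directions between trametinib and control at the 2 times, with no overlap at either. At D11 it held 0.520%, 3.59% and 4.01% of TRA counts in trametinib, against 0.0693% and 0.357% in control, a difference of means of 2.49 percentage points. At D4 it held 0.360%, 0.158% and 0.294% in trametinib, against 3.66%, 11.2% and 1.24% in control, a difference of -5.10 points. The clonotype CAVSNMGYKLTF held 2.70% and 3.14% of TRA counts in trametinib D11 replicates 2 and 3, and 1.65% and 8.49% in control D4 replicates 1 and 2. The difference between the times was not tested, and control D11 has 2 libraries. It was found by checking every TRAV7 name and the family, in each treatment contrast tested above, for full separation of opposite sign at the 2 times. Only TRAV7N-5 here and TRAV7-3V7D-3 below met this. TRAV names outside the family were not checked, and how many would meet it by chance was not tested.

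The joint name TRAV7-3V7D-3 likewise differed in sign between combination and control. At D11 it held 0.226%, 0.310% and 0.211% in combination, against 0.368% and 0.418% in control (difference -0.144 points). At D4 it held 0.440%, 0.351% and 0.412% in combination, against 0% (listed at 0), 0.167% and 0.193% in control (difference 0.281 points). This difference between the times was not tested either.

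Entries with an unresolved CDR3 residue, which no comparison used, came to 25 TRAV7 entries with 191 counts in all, in 9 treated libraries and 0 control libraries. Control libraries held 576 of the 7282 TRAV7 entries with a resolved CDR3 (7.91%).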

How the results depend on the processing

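Counts of TRAV7 names called moved with the setting. For BGB-283 against control, edgeR's count of 1 became 3 with DESeq2, 3 with no filter on low counts, and 0 with each clonotype counted once, with counts under 20 removed, with the replicate block or without both shallowest control libraries, and ran from 0 to 1 with each library left out; it was 0 without BGB-283 D4 replicates 1 or 2, BGB-283 D11 replicate 2 or control D11 replicates 1 or 2. For combination against control, the count of 0 became 2 with DESeq2 and 1 with no filter, and ran from 0 to 2 with a library left out (1 without BGB-283 D4 replicate 3, 2 without control D4 replicate 3). For trametinib against control it became 1 with DESeq2, no filter or counts under 20 removed, and ran from 0 to 1 (1 without combination D4 replicate 3, BGB-283 D4 replicates 1 or 3, or any D4 control library). In these 3 contrasts TRAV7N-4 was among the names called wherever any was. For combination against BGB-283 it became 2 with DESeq2, 1 with no filter, estimated molecules, counts under 20 removed or without the shallowest controls, and ran from 0 to 1 (1 without trametinib D4 replicate 1, BGB-283 D4 replicate 1 or either D11 control library); apart from TRAV7N-6 under DESeq2, the name was TRAV7-3, whose counts came mostly from 1 library. For D11 against D4 it became 1 with DESeq2, TRAV7N-4, and stayed 0 otherwise. For combination against trametinib the count stayed 0 under every alternative. The cause of these moves was not tested.

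The family fold for combination against trametinib turned from -0.22 to 0.30 with TMM, and ran from -0.62 to -0.07 with a library left out; for D11 against D4 it ran from -0.70 to -0.40. The TRAJ number difference weighted by counts was -1.80, no longer past the threshold. Sharing without TRAV7D-2, an alternative chosen after seeing the data, was -2.54 points. Leaving out a library gave -0.261 to -0.231 residues for CDR3 length, -3.17 to -2.80 for TRAJ number, 2.11 to 2.98 points for sharing and 15 to 18 TRAJ called, all on the same side of the threshold. Every library had at least 20 TRAV7 clonotypes, so that alternative changed nothing. No alternative was run for the dropped measure.

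Replicate numbers did not pair the libraries: correlations between libraries of equal number ran from -0.278 to 0.325, and 0 of 28 group pairs had all of theirs above 0.1. Beyond the BGB-283 against control count, the replicate block changed no count of TRAV7 names called; the family folds with it were -0.23 for combination against trametinib and -0.50 for D11 against D4.

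Depth limits rare names most: control D11 replicate 1, with 37504 TRA counts and 63 TRAV7 clonotypes, cannot show a name under 0.00800% by counts. This library held an estimated 2013 TRA molecules, so its limit in molecules is higher than that.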
